A study of Mus musculus with 64 samples.

Results

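The comparison described here is RISP KO against RISP Het in resting microglia, over 13 of the 64 libraries of the series: 6 KO libraries (replicates 6 to 11) and 7 Het libraries (replicates 5 to 11). They were chosen by sample name, with earlier results of these data known, and form 1 batch of libraries, set apart from the other 13 naive adult KO and Het libraries by total counts and by the share of the non-coding transcripts Gm26917 and Yam1. All 13 are labelled microglia from the brain of naive (untreated) mice of the adult age group, and the groups differ in the labels only in genotype, RISP KO or RISP Het. Cells were sorted from whole brain with antibodies to CD11b and CD45, which mark myeloid cells, and total RNA was made into stranded libraries. The labels name neither the Cre driver nor the floxed allele. The count table carries rows for CreERT2, a recombinase switched on by tamoxifen, and for the reporter tdTomato. CreERT2 was counted in every library, at 226 to 378 CPM in Het (median 342) and 179 to 245 CPM in KO (median 219), so the Het controls carry the recombinase too. Whether replicates are separate animals is not stated in the labels, and the p-values therefore measure the spread between these libraries, which may in part be technical.

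RISP is the Rieske iron-sulphur protein, encoded by Uqcrfs1. It is a catalytic subunit of complex III, the step of the respiratory chain that takes electrons from ubiquinol and passes them to cytochrome c while pumping protons. Without it ubiquinol is not re-oxidised by the chain, and the dehydrogenases that feed ubiquinone lose their acceptor. Cells with a stalled respiratory chain are known to lean on glycolysis and to switch on the integrated stress response, a programme in which phosphorylation of eIF2α favours translation of the transcription factors ATF4 and ATF5 and thereby raises genes of serine synthesis, amino acid transport and tRNA charging. Microglia are the resident macrophages of the brain. In the resting state they express P2ry12, Tmem119, Cx3cr1, Csf1r and Sall1, and all of these were abundant here, with at least 893.5 CPM (counts per M, scaled by TMM) in each of the 13 libraries.

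The depth of a Het library was 6.38 to 11.7 M counts and that of a KO library 7.28 to 11.4 M, and Gm26917 and Yam1 together took 3.59% to 5.80% of them. Sets of libraries and single libraries stood apart. Replicates up to 8 and from 9 upward were taken as separate sets, a split made after the counts were seen. With the genotypes averaged, 278 of 14053 tested genes differed between the sets, among them histone H1 and ribosomal protein genes. As the split came from the same counts, this number describes it and does not test it. Het 9 stood apart from the other Het libraries. It lay on the KO side of the first principal component (36.0, against -46.4 to -10.3 for the other Het and 13.9 to 41.9 for KO), and Malat1 took 0.448% of its counts against 1.52% to 2.36% in the other Het libraries. KO 6 was the only female KO library, while Het 5 and Het 6 were female. In replicates from 9 alone, with 3 libraries a group, few list members were called: 1 each in the HIF, integrated stress response, mitochondrial DNA, immediate early and cytokine lists and none in the other lists described below.

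Uqcrfs1 itself fell in KO. The gene (ENSMUSG00000038462) lies at chr13:30540308-30545362 on the minus strand of GRCm38. Its level was 16.01, 11.1, 11.1, 16.3, 17.3, 8.95 and 14.9 CPM in Het 5 to 11, and 2.94, 2.01, 1.19, 2.34, 1.75 and 3.54 CPM in KO 6 to 11. Every KO library was below every Het library, Het 9 included, so the labels hold for this gene in all 13. The difference was -2.57 ± 0.28 on the log2 scale (± standard error throughout; edgeR quasi-likelihood test, adjusted p = 9.49e-05). In replicates from 9 alone, with 3 libraries a group, it was -2.42 with an adjusted p of 0.122. In bulk RNA, fewer cells of a type and less RNA per cell cannot be told apart, and the remaining Uqcrfs1 counts cannot be assigned to undeleted cells or to transcript left in deleted ones.

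Across the transcriptome, 366 of 12677 tested genes were higher in KO (2.89%) and 542 were lower (4.28%) at an adjusted p under 0.05, which is what "rose", "fell" and "called" mean below. Counts of list members below are to be read against these shares. The change reached 2-fold for 92 of the higher and 257 of the lower genes. The Het and KO ranges did not overlap for 372 of the 908 called genes (129 higher and 243 lower), against 403 of all 12677 (3.18%). The lower genes thus outnumbered the higher ones, and a larger share of them reached 2-fold. Leaving out Het 9 raised the number of calls to 1501 (653 higher and 848 lower of 12523 tested genes). Leaving out Het 7 or Het 8 lowered it to 601 or 593, and 493 genes were called with each library left out in turn. Male libraries alone gave 333 calls, replicates up to 8 alone 778 and replicates from 9 alone 10. Het 9 lay inside the KO range for 181 of the 542 lower genes (33.4%) and 160 of the 366 higher genes (43.7%), while each other Het library lay inside it for 3.69% to 12.2% and 5.19% to 12.6%.

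**Figure D1:**
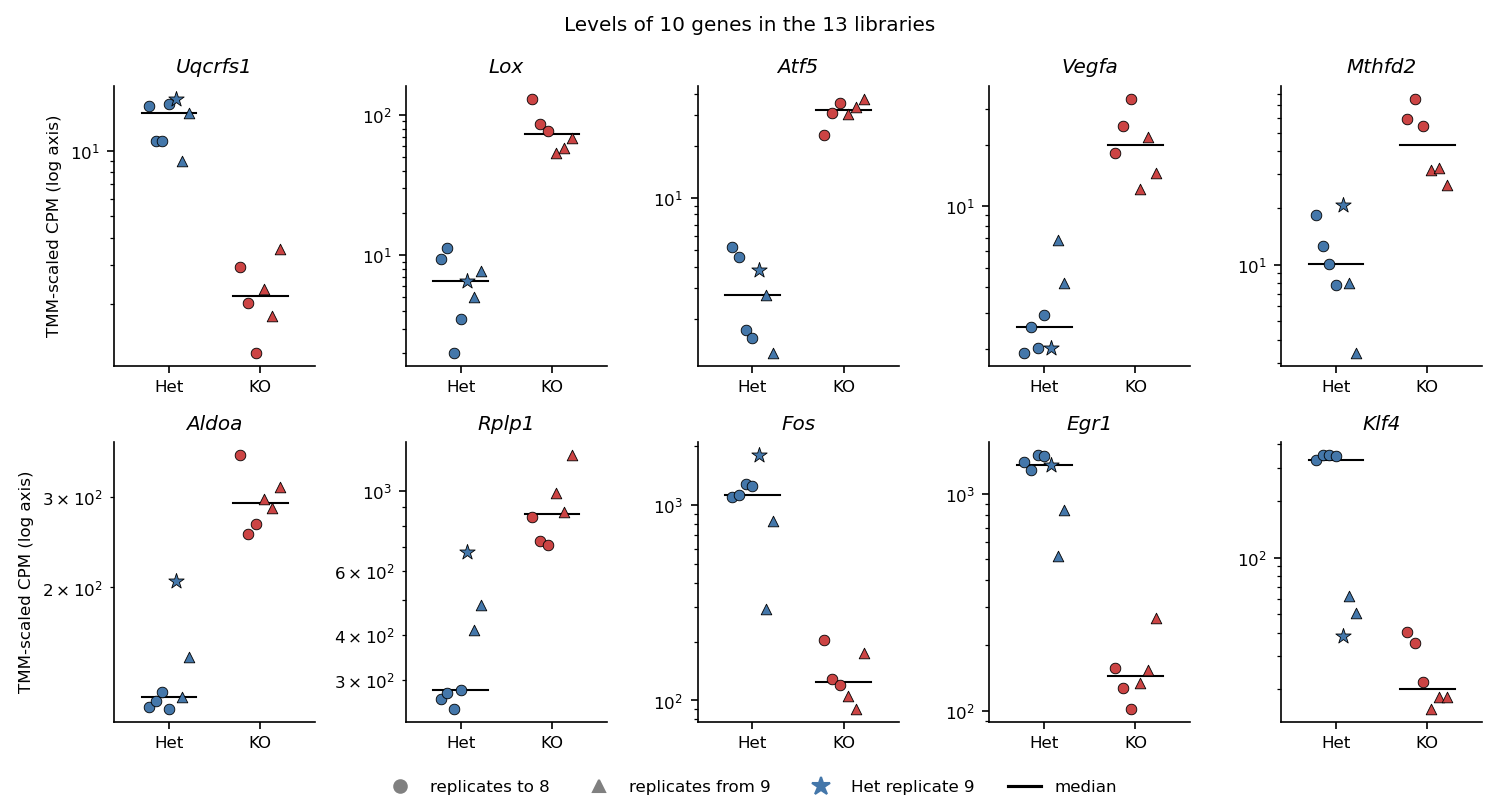
Level of 10 genes in each of the 13 libraries, in TMM-scaled CPM on a log axis, for Het (blue) and KO (red), with circles for replicates up to 8, triangles for replicates from 9, a star for Het 9 and a line at the median. Uqcrfs1 in KO (1.19 to 3.54 CPM) lies below every Het library (8.95 to 17.3 CPM), and Lox in KO (53.6 to 131 CPM) lies above every Het library (2.01 to 11.3 CPM).

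The largest rise among well-expressed genes was in Lox, which encodes lysyl oxidase, the extracellular enzyme that cross-links collagen and elastin and a known target of hypoxia-inducible factor. It had 2.01 to 11.3 CPM in Het (median 6.54) and 53.6 to 131 CPM in KO (median 72.8), with no overlap between the genotypes, and rose by 3.59 ± 0.34 (adjusted p = 2.52e-05). Atf5, a transcription factor of the mitochondrial stress response, had 1.26 to 5.21 CPM in Het (median 2.74) and 23.1 to 37.4 CPM in KO (median 32.2) and rose by 3.41 ± 0.31 (adjusted p = 2.43e-05). Cox6a2, the isoform of a cytochrome oxidase subunit usually found in heart and skeletal muscle, had 0.718 to 4.31 CPM in Het (median 1.94) and 12.1 to 23.4 CPM in KO (median 18.6) and rose by 2.88 ± 0.34 (adjusted p = 0.000145). For all 3 genes each KO library was above each Het library. Vegfa, the vascular growth factor, had 1.91 to 6.84 CPM in Het (median 2.56) and 12.2 to 33.6 CPM in KO (median 19.96) and rose by 2.69 ± 0.34 (adjusted p = 0.000261). Hspa12a, a distant member of the HSP70 family, shared the smallest adjusted p of the comparison with Btg2 (1.88e-05): it had 8.51 to 13.9 CPM in Het (median 12.7) and 39.0 to 56.6 CPM in KO (median 42.9) and rose by 1.97 ± 0.16. The other members of the 12 largest rises were Aldh1l2 and Mthfd2, described with the one-carbon enzymes, mt-Rnr2, described with the mitochondrial genes, and Cit, Zfp771, Guk1 and Ccdc167. The last 4 were uneven across the KO libraries. Cit, the citron kinase of cytokinesis, reached 89.9 CPM in KO 6 and 2.73 to 10.3 CPM in the other KO libraries. Zfp771 reached 73.2 CPM in KO 8 and 38.4 CPM in KO 10 with a KO median of 3.8, and Guk1, the guanylate kinase, reached 97.6 CPM in KO 6 with a KO median of 7.77. Among the 13 fits that each leave out 1 library, the call was lost in 6 (highest adjusted p = 0.11, without KO 6) for Cit, in 8 (highest adjusted p = 0.131, without KO 8) for Zfp771 and in 10 (highest adjusted p = 0.299, without KO 6) for Guk1. Ccdc167 (1.87 ± 0.42) kept its call in each.

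The largest falls were mostly transcription factors and feedback genes of the immediate early response, described below. Outside that class Notch4, a Notch receptor, fell by 3.94 ± 0.86 (adjusted p = 0.0118), with 11.9 to 457 CPM in Het (median 45.6) and 2.13 to 17.1 CPM in KO (median 3.8), and 457 CPM was the value of Het 11 alone. Fam71a, which lies downstream of Atf3 on the same strand of chromosome 1, fell by 3.62 ± 0.77 (adjusted p = 0.00962), with 10.7 to 89.4 CPM in Het (median 18.2) and 0 to 6.47 CPM in KO (median 1.78). Adamts1, a secreted protease that cuts proteoglycans, fell by 2.95 ± 0.36 (adjusted p = 0.000212), with 147 to 498 CPM in Het (median 298) and 23.7 to 79.5 CPM in KO (median 28.2). The long non-coding RNA RP24-142B15.11 had 3.84 to 39.2 CPM in Het (median 26.8) and 0.91 to 3.43 CPM in KO (median 2.64) and fell by 3.07 ± 0.51 (adjusted p = 0.00204). Of these 4, Notch4 alone had overlapping ranges. 2 of the 5 smallest p-values belonged to membrane proteins with steady values in both genotypes: Gpr165, an orphan receptor, had 22.3 to 38.5 CPM in Het (median 30.1) and 3.44 to 7.83 CPM in KO (median 4.66), and Tmem176b, a protein of the endolysosomal membrane, had 197 to 276 CPM in Het (median 224) and 44.8 to 86.5 CPM in KO (median 71.8). They fell by 2.497 ± 0.22 (adjusted p = 2.43e-05) and 1.73 ± 0.16 (adjusted p = 2.43e-05), and their ranges were apart.

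Genes of the integrated stress response moved in both directions. Of 19 tested regulators 5 rose and 3 fell, with a median log2 difference of -0.05 (all tested genes: -0.01, with 2.89% higher and 4.28% lower). The 5 that rose were Atf5, Chac1, Trib3, Sesn2 and Eif4ebp1. Chac1 degrades glutathione, Trib3 is a pseudokinase that feeds back on ATF4, and Eif4ebp1 and Sesn2 restrain mTORC1-driven translation. Sesn2 had 5.16 to 9.55 CPM in Het (median 7.39) and 10.9 to 23.5 CPM in KO (median 17.8) and rose by 1.32 ± 0.20 (adjusted p = 0.00127). The 3 that fell were Atf4, Atf3 and Ppp1r15a. Ppp1r15a, the GADD34 subunit that removes the phosphate from eIF2α, had 132 to 213 CPM in Het (median 202) and 23.9 to 75.1 CPM in KO (median 42.3) and fell by 2.06 ± 0.24 (adjusted p = 0.000145). Atf3 had 76.7 to 458 CPM in Het (median 196) and 27.0 to 85.3 CPM in KO (median 40.5) and fell by 2.26 ± 0.35 (adjusted p = 0.00122). Both are also immediate early genes. Atf4 mRNA fell by 0.46 ± 0.13 (adjusted p = 0.0404), and that call was lost in 10 (highest adjusted p = 0.0854, without Het 8) of the 13 fits without 1 library. Ddit3, which encodes CHOP, was at -0.57 ± 0.18 (adjusted p = 0.0628). Chac1 (3.12 ± 0.85, KO median 2.82 CPM) and Trib3 (2.37 ± 0.60, KO median 4.86 CPM) were low, and their calls were lost in 9 (highest adjusted p = 0.0954, without KO 8) and 5 fits with an adjusted p of up to 0.0683 without KO 7. The number of called regulators was 6 (4 higher and 2 lower) in male libraries alone and 5 (3 higher and 2 lower) without Het 6, Het 7, KO 7 or KO 11.

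In 3 lists of metabolic genes known as ATF4 targets, rises and no falls were called in the 13 libraries. Among 15 tested serine and one-carbon enzymes 6 rose (median 0.50), among 13 genes of amino acid transport and synthesis 4 rose (median 0.61), and among 20 cytosolic aminoacyl-tRNA synthetases 6 rose (median 0.40). Male libraries alone gave 4, 3 and 2 calls in these lists, all higher. The serine and one-carbon list was mixed in sign, with 8 positive and 7 negative differences. In it 1 gene was called lower without Het 9, without Het 9 and KO 6 together and in replicates up to 8. The DESeq2 Wald test and the 26-library fit also called 1 gene of that list lower. Phgdh and Psat1 catalyse the first steps of serine synthesis from a glycolytic intermediate. Phgdh had 29.2 to 52.9 CPM in Het (median 33.9) and 71.0 to 111 CPM in KO (median 86.9), and Psat1 had 12.1 to 27.8 CPM in Het (median 18.2) and 32.6 to 67.0 CPM in KO (median 51.7). They rose by 1.14 ± 0.17 and 1.49 ± 0.22 (adjusted p = 0.000826 and 0.000881), and in both cases the ranges were apart. Mthfd2 and Aldh1l2, enzymes of mitochondrial folate metabolism, had larger changes. Mthfd2 had 3.4 to 20.6 CPM in Het (median 10.1) and 26.3 to 75.6 CPM in KO (median 43.2) and rose by 2.005 ± 0.36 (adjusted p = 0.00362). Aldh1l2 had 3.68 to 17.4 CPM in Het (median 6.17) and 21.6 to 77.1 CPM in KO (median 36.8) and rose by 2.28 ± 0.40 (adjusted p = 0.00301). Shmt2 (0.83 ± 0.20) rose too, while Psph, the last enzyme of serine synthesis, was at -0.26 ± 0.36 (adjusted p = 0.742), and the cytosolic Shmt1 was at 1.08 ± 0.45 (adjusted p = 0.173). Mthfd1, the cytosolic folate enzyme, rose by 0.50 ± 0.12; its call was lost in 4 fits with an adjusted p of up to 0.0544 without KO 11, and that of Shmt2 in 1 (highest adjusted p = 0.0524, without KO 11).

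Asns, asparagine synthetase, had 0.785 to 3.79 CPM in Het (median 1.51) and 7.11 to 20.4 CPM in KO (median 9.92) and rose by 2.63 ± 0.36 (adjusted p = 0.000509). The amino acid transporter genes Slc7a5 and Slc1a4 rose by 1.12 ± 0.18 and 1.40 ± 0.25 (adjusted p = 0.00131 and 0.00314), with 35.1 to 86.0 CPM in Het (median 70.2) and 127 to 198 CPM in KO (median 132) for Slc7a5 and 5.06 to 13.1 CPM in Het (median 9.31) and 16.5 to 34.7 CPM in KO (median 19.2) for Slc1a4. For these 3 genes every KO library lay above every Het library. Got1, the cytosolic aspartate aminotransferase, had 10.0 to 27.0 CPM in Het (median 17.3) and 23.5 to 43.4 CPM in KO (median 33.9) and rose by 0.95 ± 0.23 (adjusted p = 0.0209), with overlapping ranges. Slc3a2, the partner chain of Slc7a5, was at 0.24 ± 0.11 (adjusted p = 0.211). The synthetases that rose charge serine (Sars, 0.83 ± 0.11), glutamate and proline (Eprs, 0.61 ± 0.13), glycine (Gars, 0.55 ± 0.12), alanine (Aars, 0.77 ± 0.18), aspartate (Dars, 0.53 ± 0.14) and lysine (Kars, 0.49 ± 0.13). Sars had 49.7 to 79.2 CPM in Het (median 61.1) and 102 to 120.0 CPM in KO (median 113), with no overlap. The calls of Dars and Kars were lost in 6 (highest adjusted p = 0.078, without KO 11) and 8 fits with an adjusted p of up to 0.0856 without KO 10. Of 17 mitochondrial synthetases only Aars2 rose (0.88 ± 0.25, adjusted p = 0.0426, lost in 10 fits with an adjusted p of up to 0.1 without KO 11). Het 9 was like the other Het libraries for these lists: its summed level of the serine and one-carbon enzymes was 407 CPM, against 416 to 451 CPM in the other Het and 519.9 to 601 CPM in KO, and that of the synthetases was 1264 CPM, against 1137 to 1249.5 and 1564 to 1671 CPM.

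The promoters of these genes were searched for the core of the C/EBP-ATF response element, TGATGNAA, on both strands, in 300 bases of RefSeq promoter sequence per gene (250 before and 50 after the transcript start, GRCm38.p6). It was found in 7 of the 18 risen members of the 4 lists that have a promoter in the table (Trib3, Chac1, Asns, Slc1a4, Got1, Aars and Gars), in 1 of the 3 that fell (Atf3), and in 4.51% of all 27025 genes with a promoter. The lists were drawn up from genes known as ATF4 targets, so the match is a description of the members. A stretch around the match is shown 5′ to 3′ in the gene's own direction for 4 members that rose and for Atf3, which fell, with the match in capitals. TTGCATCA and TTTCATCA are the element read on the other strand, and Chac1, Got1 and Atf3 hold the same letters:
Chac1, chr2:119351023-119351082, plus strand: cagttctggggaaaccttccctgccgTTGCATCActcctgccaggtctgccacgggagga
Asns, chr6:7693210-7693258, minus strand: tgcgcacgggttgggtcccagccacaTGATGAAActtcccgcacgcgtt
Got1, chr19:43524674-43524733, minus strand: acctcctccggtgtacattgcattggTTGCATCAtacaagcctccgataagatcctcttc
Gars, chr6:55037945-55038000, plus strand: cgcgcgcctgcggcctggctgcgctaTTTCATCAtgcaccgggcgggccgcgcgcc
Atf3, chr1:191183410-191183469, minus strand: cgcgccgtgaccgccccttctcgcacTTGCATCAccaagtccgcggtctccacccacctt
Members with and without these letters rose, and among those with the same match, Chac1 rose by 3.12 and Atf3 fell by 2.26.

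Genes of the hypoxia-inducible factor (HIF) pathway and of glycolysis also rose. HIF-1 is a transcription factor that is held down by oxygen-dependent prolyl hydroxylases and drives glucose uptake, glycolysis and vascular signals. Of 19 tested HIF genes 7 rose and none fell (median 0.32). In male libraries alone 4 rose. Besides Lox and Vegfa, those called in the 13 libraries were Hif1a, Bnip3, Egln1, Egln3 and P4ha1. Hif1a, the regulated subunit, had 167 to 224 CPM in Het (median 205) and 284 to 347 CPM in KO (median 310.4) and rose by 0.64 ± 0.08 (adjusted p = 0.00033). Bnip3, a mitophagy receptor, had 11.3 to 26.2 CPM in Het (median 21.3) and 32.9 to 63.7 CPM in KO (median 40.2) and rose by 1.13 ± 0.22 (adjusted p = 0.00548). In both, KO and Het did not overlap. Egln1 and Egln3, which encode the prolyl hydroxylases that mark HIF-1α for breakdown, rose by 0.49 ± 0.12 and 1.34 ± 0.34, and P4ha1, a collagen prolyl hydroxylase subunit, by 0.59 ± 0.14. Their calls were lost in 1 (highest adjusted p = 0.0507, without KO 10), 4 (highest adjusted p = 0.0724, without KO 6) and 1 fit with an adjusted p of up to 0.0525 without KO 10. Pdk1, which holds pyruvate out of the TCA cycle, was at 0.22 ± 0.15 (adjusted p = 0.438), and Epas1, which encodes HIF-2α, was at -0.47 ± 0.54 (adjusted p = 0.674).

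Of 21 tested glycolysis genes 8 rose and 1 fell (median 0.42), and in male libraries alone 6 rose and none fell. Slc2a1, the glucose transporter GLUT1, had 39.4 to 58.7 CPM in Het (median 50.6) and 68.9 to 100.2 CPM in KO (median 81.7) and rose by 0.76 ± 0.12 (adjusted p = 0.00149). Aldoa, the aldolase, had 116 to 206 CPM in Het (median 123) and 254 to 362 CPM in KO (median 291) and rose by 1.12 ± 0.14 (adjusted p = 0.000248). Pfkl, a phosphofructokinase chain, rose by 1.03 ± 0.16 (adjusted p = 0.00104) with 46.5 to 88.5 CPM in Het (median 63.9) and 108 to 145 CPM in KO (median 128), and Pgam1, the phosphoglycerate mutase, rose by 0.95 ± 0.14 (adjusted p = 0.000809) with 41.7 to 81.3 CPM in Het (median 50.7) and 90.7 to 122 CPM in KO (median 105). For each of the 4 the KO libraries lay above all Het libraries, Het 9 included, although Het 9 had the highest Het value of Aldoa, 206 CPM. Tpi1 (1.01), Pgk1 (0.81), Gpi1 (0.80) and Pkm (0.80), which act between the hexose and pyruvate steps, rose as well. Pfkfb3, which makes the activator of phosphofructokinase, fell by 0.74 ± 0.20, a call lost in 9 fits with an adjusted p of up to 0.0794 without KO 7. Gapdh was at 0.72 ± 0.22 (adjusted p = 0.0573), Ldha at 0.42 ± 0.18 (adjusted p = 0.177) and Hk3 at -0.15 ± 0.10 (adjusted p = 0.422). The core HIF motif ACGTG was present in 11 of the 14 risen HIF and glycolysis members with a promoter, in Pfkfb3, which fell, and in 21.8% of all 27025 genes with a promoter. These lists hold genes known as HIF targets, so this match too is a description of the members.

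Mitochondrial DNA genes formed the next block. Mitochondrial ribosomal RNA took 5.24% to 8.78% of counts in Het (median 6.70%) and 12.6% to 20.5% in KO (median 17.8%), with no overlap. mt-Rnr2, the 16S rRNA, rose by 1.70 ± 0.16 (adjusted p = 2.52e-05), and mt-Rnr1, the 12S rRNA, by 0.85 ± 0.18 (adjusted p = 0.0103). The 13 protein genes of mitochondrial DNA together took 0.886% to 1.55% of counts in Het (median 1.05%) and 1.42% to 2.42% in KO (median 2.30%); the ranges overlapped, with KO 6 lowest in KO and Het 10 highest in Het. Of these 13 genes 9 rose and none fell (median 0.999). mt-Co1, a core subunit of cytochrome oxidase, had 2355 to 3952 CPM in Het (median 3065) and 5377 to 9382 CPM in KO (median 9175) and rose by 1.49 ± 0.15 (adjusted p = 4.29e-05). mt-Nd1 (0.999 ± 0.13, adjusted p = 0.000341), mt-Nd4 (0.79 ± 0.15, adjusted p = 0.00436) and mt-Nd6 (1.15 ± 0.16, adjusted p = 0.00049) encode complex I subunits, and mt-Nd6 alone among the 13 is encoded on the opposite strand. mt-Cytb, the complex III subunit that mitochondrial DNA encodes, had 1470.5 to 2612 CPM in Het (median 1774) and 1863 to 4085 CPM in KO (median 3634) and rose by 0.88 ± 0.17 (adjusted p = 0.00625). mt-Nd2 (0.53), mt-Nd5 (0.70), mt-Atp8 (0.77) and mt-Atp6 (1.44, lost in 9 fits with an adjusted p of up to 0.0979 without KO 9) rose too.

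Individual values for mt-Co2, mt-Co3, mt-Atp6 and mt-Nd4l are uncertain. Gm28661, Gm28437, Gm10925 and Gm10222, nuclear copies annotated as unprocessed pseudogenes between 24612407 and 24615565 on chromosome 1, are 100% identical to them over 681, 783, 678 and 294 bases, so the counting could divide reads between copy and gene. Summed over gene and copy, the ratio of the KO mean to the Het mean was 1.503, 1.35, 0.98 and 0.89 on the log2 scale for the 4 genes in that order.

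Few nuclear genes of the respiratory chain were called in the 13 libraries, and more were without Het 9. Apart from Uqcrfs1, 1 of 14 complex III genes rose, the assembly factor Uqcc2 (0.92 ± 0.26, adjusted p = 0.0416), and the catalytic partner subunit Cyc1 was at 0.25 ± 0.20 (adjusted p = 0.525). None of 36 complex I subunit genes was called in either direction (median 0.30), though 35 differences were positive and 1 negative. Positive and negative differences numbered 12 and 2 for complex III, 12 and 1 for nuclear cytochrome oxidase genes and 16 and 1 for ATP synthase. Cox6a2 and Cox7a2l (0.72 ± 0.20, adjusted p = 0.0442) rose among 13 nuclear cytochrome oxidase genes, and Atp5g2 (0.58 ± 0.17, adjusted p = 0.047) among 17 of ATP synthase. The calls of Uqcc2, Cox7a2l and Atp5g2 were lost in 10 (highest adjusted p = 0.104, without KO 11), 8 (highest adjusted p = 0.1, without KO 11) and 11 fits with an adjusted p of up to 0.111 without KO 11. Without Het 9 the calls, all higher, numbered 7 for complex I, 3 for complex III, 7 for cytochrome oxidase and 6 for ATP synthase. Calls rose across the transcriptome in that fit, with 653 of 12523 tested genes higher, against 366 of 12677 in the 13 libraries. Of 22 TCA cycle genes Mdh2 (0.45 ± 0.12) and Cs (0.41 ± 0.11) rose, calls lost in 9 (highest adjusted p = 0.0817, without KO 9) and 10 fits with an adjusted p of up to 0.0841 without KO 6. None of 13 fatty acid oxidation genes (median 0.08), 16 genes of iron-sulphur cluster and heme assembly (median 0.06) and 7 other dehydrogenases that reduce ubiquinone (median -0.24) was called, Dhodh (-0.41 ± 0.34, adjusted p = 0.538) and Gpd2 (-0.39 ± 0.36, adjusted p = 0.586) included. Of 17 mitochondrial chaperones and proteases Hspa9 and Dnaja3, which work together in protein import and folding, rose by 0.67 ± 0.13 and 0.43 ± 0.10 (adjusted p = 0.00445 and 0.0168), with ranges apart, while the protease Lonp1 was at 0.29 ± 0.15 (adjusted p = 0.297). Among 19 genes of mitochondrial DNA upkeep and dynamics the outer membrane channel Vdac1 rose (0.48 ± 0.11, adjusted p = 0.0145) and Polg2, the accessory subunit of the mitochondrial DNA polymerase, fell (-2.17 ± 0.43, adjusted p = 0.00707). Polg2 had 4.27 to 55.2 CPM in Het (median 38.1) and 3.95 to 12.2 CPM in KO (median 7.44), and the lowest Het value was Het 9. Of 77 mitochondrial ribosomal protein genes Mrpl52 rose (0.62 ± 0.17, lost in 9 fits with an adjusted p of up to 0.1 without KO 11). Without Het 9, 5 mitochondrial chaperones and proteases, 5 mitochondrial ribosomal protein genes, 2 fatty acid oxidation genes and 1 iron-sulphur cluster gene were called, all higher. In male libraries alone 1 cytochrome oxidase gene and 1 of the chaperones and proteases were called, both higher, and none of complexes I and III, ATP synthase, the TCA cycle or the mitochondrial ribosome.

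**Figure D2:**
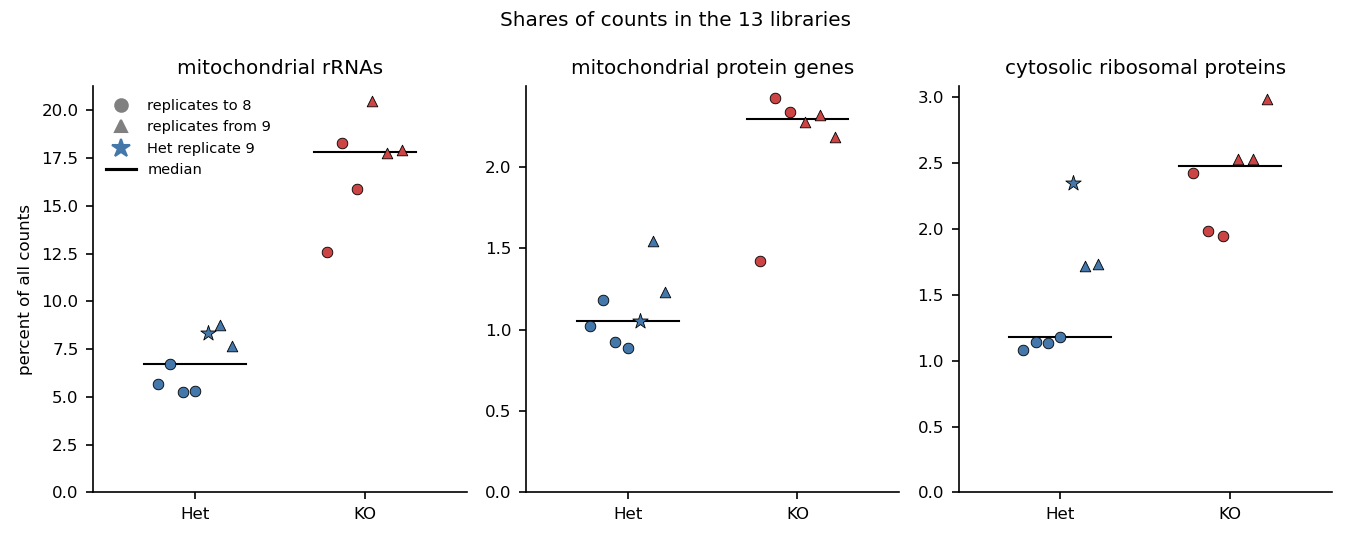
Share of all counts, in percent, taken by mitochondrial rRNAs, mitochondrial protein genes and cytosolic ribosomal protein genes in each library, for Het (blue) and KO (red), with circles for replicates up to 8, triangles for replicates from 9, a star for Het 9 and a line at the median. Mitochondrial rRNA is 12.6% to 20.5% in KO and 5.24% to 8.78% in Het, and Het 9 reaches 2.35% for ribosomal protein genes, inside the KO range of 1.95% to 2.99%.

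Cytosolic ribosomal protein genes, which encode the protein part of the ribosome, rose as a family: 63 of 80 tested were higher in KO and none was lower (median 0.85). Their summed level was 10290.0 to 24075 CPM in Het (median 11006), against 19911 to 32615 CPM in KO (median 25848). Het 9 held the top Het value, and the other Het libraries had 10290.0 to 16902 CPM, below every KO library. The sets differed too: in replicates up to 8 Het had 10290.0 to 11006 and KO 19911 to 24875 CPM, and in replicates from 9 Het had 16537 to 24075 and KO 26820.1 to 32615 CPM, so KO was above Het within each. Rpl38 had 37.5 to 66.0 CPM in Het (median 40.7) and 68.4 to 115 CPM in KO (median 109) and rose by 1.06 ± 0.17 (adjusted p = 0.0014). Rplp1, a protein of the ribosomal stalk, had 249.5 to 678 CPM in Het (median 282) and 708 to 1255 CPM in KO (median 860.4) and rose by 1.25 ± 0.23 (adjusted p = 0.00401). Rps2 (0.78 ± 0.14) and Rpl23 (1.01 ± 0.19) rose as well (adjusted p = 0.00426 and 0.00472). Ribosomal protein genes have many processed copies in the genome, which makes single values less certain than the family's direction. The number of calls leaned on single libraries: it was 36, 32, 34 and 32 without Het 5, 6, 7 and 8, and 32, 38 and 30 without KO 9, 10 and 11, and 2 in male libraries alone, all higher.

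Most immediate early genes fell. These genes (Fos, Jun, Egr, Klf and their feedback partners) are transcribed within minutes of a stimulus, and in microglia they also rise while tissue is dissociated and sorted. Of 24 tested members 22 fell and none rose (median -2.15), against 4.28% lower among all tested genes, and the Het and KO ranges were apart for 17, against 3.18% of all. The other 2, Nr4a1 (-1.97 ± 0.75, adjusted p = 0.135) and Gadd45b (-1.63 ± 0.69, adjusted p = 0.185), missed the threshold. Egr1 had 519.8 to 1516 CPM in Het (median 1362) and 102 to 267 CPM in KO (median 144) and fell by 2.94 ± 0.27 (adjusted p = 2.52e-05). Fos had 295 to 1808 CPM in Het (median 1125) and 90.2 to 205 CPM in KO (median 125) and fell by 3.003 ± 0.33 (adjusted p = 0.000105). The lowest Het value of Fos was Het 10, which is still above every KO library. Egr2 fell by 3.17 ± 0.28 (adjusted p = 2.43e-05), with 22.2 to 57.2 CPM in Het (median 38.0) and 2.6 to 6.59 CPM in KO (median 4.06). Klf2, a transcription factor that restrains inflammatory genes in myeloid cells, had 139 to 466 CPM in Het (median 429.5) and 33.1 to 74.7 CPM in KO (median 51.8) and fell by 2.90 ± 0.27 (adjusted p = 2.43e-05). Btg2, an antiproliferative adaptor of mRNA deadenylation, had 749 to 1502 CPM in Het (median 1117) and 139.9 to 258 CPM in KO (median 169.8) and fell by 2.59 ± 0.21 (adjusted p = 1.88e-05). Dusp1, the phosphatase that switches off MAP kinases, had 294 to 870.5 CPM in Het (median 797) and 56.0 to 157 CPM in KO (median 99.9) and fell by 2.75 ± 0.28 (adjusted p = 5.53e-05). KO was below Het in every library for all 6 of these genes. Fosb (-3.46 ± 0.52), Klf4 (-3.14 ± 0.57) and Egr3 (-2.69 ± 0.52) had the remaining falls among the 12 largest (adjusted p = 0.000962, 0.00362 and 0.00558). Jun (-2.14), Junb (-1.86), Jund (-1.79), Ier2 (-2.36), Ier3 (-2.10), Zfp36 (-1.95), Nfkbiz (-2.13) and Socs3 (-2.30) fell too. Maff (-2.17) lost its call in 7 fits with an adjusted p of up to 0.0614 without KO 9.

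The summed level of the list was 14423 to 16066 CPM for Het against 2148 to 2798 for KO among replicates up to 8, and 7481 to 16707 CPM for Het against 3515 to 5049 for KO among replicates from 9. The genotypes were apart within each set, and the gap was wider in the set up to 8. For 7 of 14053 genes the KO effect itself differed between the sets, all more negative up to 8, among them Klf4 (difference -1.87, adjusted p = 0.0374) and Btg2 (-1.37, adjusted p = 0.0194). Het 9, which lay among the KO libraries for ribosomal proteins, had the highest Het sum of the immediate early genes, 16707 CPM.

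**Figure D3:**
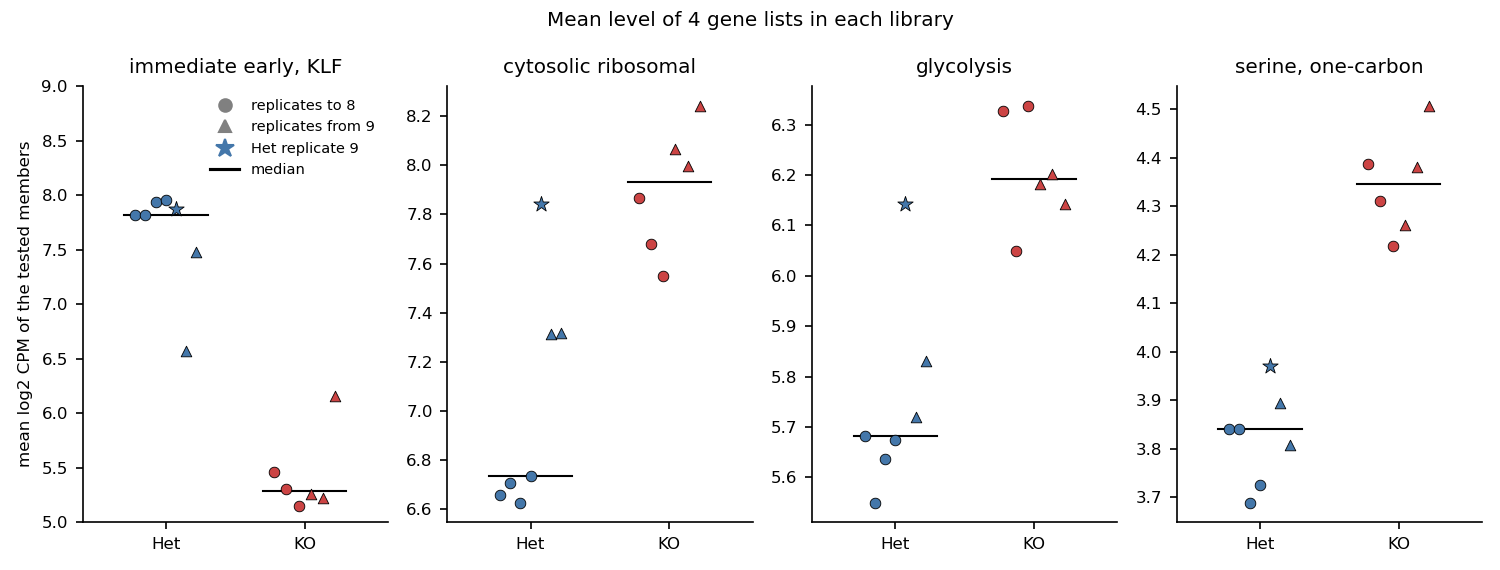
Mean log2 CPM over the tested members of 4 gene lists in each library, for Het (blue) and KO (red), with circles for replicates up to 8, triangles for replicates from 9, a star for Het 9 and a line at the median; the vertical axes do not start at 0. The ribosomal protein mean is 6.63 to 6.73 in Het and 7.55 to 7.87 in KO up to replicate 8, and the immediate early mean there is 7.82 to 7.96 in Het and 5.15 to 5.46 in KO.

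The full cyclic AMP response element, TGACGTCA, which reads the same on both strands, was found in 3 of the 18 fallen immediate early genes with a promoter in the RefSeq table and in 2.03% of all 27025 genes with a promoter. They are shown as the members that hold it, written as above with the element in capitals:
Dusp1, chr17:26508582-26508641, minus strand: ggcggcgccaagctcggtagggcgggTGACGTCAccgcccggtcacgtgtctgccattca
Btg2, chr1:134079288-134079347, minus strand: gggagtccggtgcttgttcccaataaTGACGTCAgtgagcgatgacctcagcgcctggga
Maff, chr15:79347465-79347519, plus strand: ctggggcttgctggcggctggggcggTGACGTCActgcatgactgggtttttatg
The other 15 fallen members with a promoter lack these letters in the 300 bases searched, Fos, Jun and Klf2 among them.

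**Figure D4:**
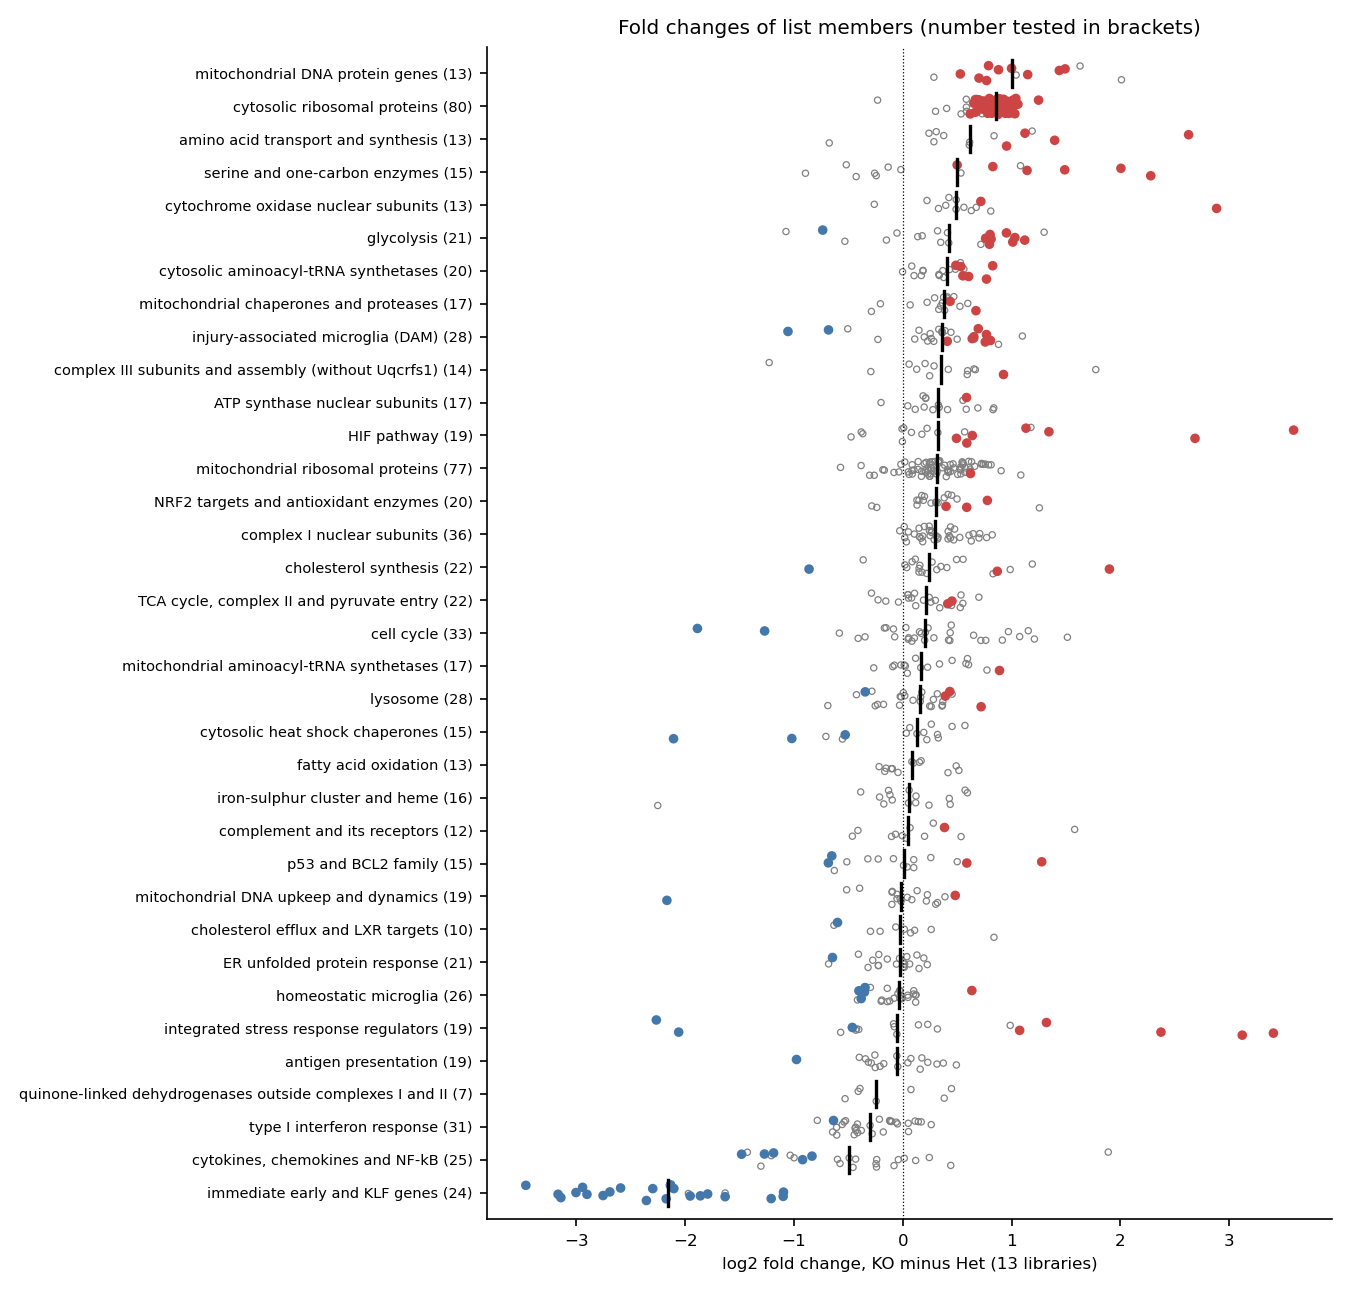
Log2 fold change between KO and Het of each tested member of 35 gene lists, 1 point per gene, red where called higher, blue where called lower and open where not called, with a bar at the list's median. The immediate early list has 22 of 24 members called lower and the cytosolic ribosomal list has 63 of 80 called higher. Complex I has none of 36 called in either direction, with 35 positive differences and 1 negative.

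Inflammatory and stress lists held calls in both directions. Among all tested genes 2.89% were higher and 4.28% lower. Of 25 tested cytokine, chemokine and NF-kB genes 5 fell and none rose (median -0.49). Tnfaip3, which encodes the NF-kB inhibitor A20, had 178 to 421 CPM in Het (median 358) and 73.5 to 169.8 CPM in KO (median 115) and fell by 1.48 ± 0.21 (adjusted p = 0.000533). Ccl9, a chemokine, had 40.1 to 107 CPM in Het (median 70.7) and 27.6 to 32.0 CPM in KO (median 29.9) and fell by 1.19 ± 0.21 (adjusted p = 0.00345). Il1a fell by 0.83 ± 0.13 (adjusted p = 0.00164) and the inflammasome sensor Nlrp3 by 0.92 ± 0.20 (adjusted p = 0.0122). Nfkbia, the inhibitor of NF-kB, fell by 1.27 ± 0.31, lost in 4 fits with an adjusted p of up to 0.0537 without KO 6. Tnf (-1.43 ± 0.48, adjusted p = 0.0856), Ccl3 (-0.999 ± 0.31, adjusted p = 0.0688) and Ccl4 (-1.03 ± 0.33, adjusted p = 0.0737) were negative and not called. Without Het 10 or without KO 11, 8 members fell, and in male libraries alone 3. Of 15 cytosolic heat shock chaperones Dnajb1 (-1.02 ± 0.23), Hsp90aa1 (-0.53 ± 0.13) and Hspa1a (-2.11 ± 0.61) fell (adjusted p = 0.0135, 0.0214 and 0.0494), while the list median was positive (0.13). Hspa1a had 0 counts in KO 6, and its call was lost in 9 fits with an adjusted p of up to 0.0981 without KO 7. 5 members fell without KO 10, and without Het 11 2 rose and 2 fell; Het 11 held the highest Het sum of the list, 4974 CPM against 2342 to 3072 CPM in the other Het. In male libraries alone 1 fell. Of 21 genes of the ER unfolded protein response Dnajb9 fell (-0.65 ± 0.17, lost in 8 fits with an adjusted p of up to 0.0808 without KO 11), and the chaperone Hspa5 was at -0.68 ± 0.20 (adjusted p = 0.0573). That single call among 21 genes is near the share of lower genes among all tested. Of 15 p53 and BCL2 family genes Cdkn1a, the p21 cell cycle inhibitor, and Ccng1 rose by 1.28 ± 0.27 and 0.59 ± 0.11 (adjusted p = 0.0102 and 0.00455). The anti-apoptotic Mcl1 and Bcl2a1b fell by 0.65 ± 0.12 and 0.68 ± 0.12 (adjusted p = 0.00469 and 0.00315). Mcl1 had 434 to 705 CPM in Het (median 575) and 285 to 400.4 CPM in KO (median 348), without overlap. In male libraries alone 2 of the family fell and none rose. Of 20 NRF2 targets and antioxidant enzymes the ferritin chains Fth1 (0.78 ± 0.14, adjusted p = 0.00345) and Ftl1 (0.59 ± 0.16, adjusted p = 0.0342) and the thioredoxin reductase Txnrd1 (0.40 ± 0.11, adjusted p = 0.0442) rose. Fth1 kept its call without each library, whereas Ftl1 and Txnrd1 lost theirs in 10 (highest adjusted p = 0.0799, without KO 11) and 12 fits with an adjusted p of up to 0.0988 without KO 6, and 1 member rose in male libraries alone.

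The called identity genes of microglia had small changes. Of 26 genes of homeostatic microglia 4 fell and 1 rose (median -0.04), against 4.28% lower and 2.89% higher among all tested genes. Tgfbr1, a receptor chain for the TGF-β that maintains the resting state, had 2017 to 2573 CPM in Het (median 2292) and 1631 to 1889 CPM in KO (median 1809.8) and fell by 0.35 ± 0.07 (adjusted p = 0.00852). Slco2b1 had 1127 to 1502 CPM in Het (median 1334) and 1049 to 1064 CPM in KO (median 1058) and fell by 0.35 ± 0.08 (adjusted p = 0.0115). Both had ranges apart. The transcription factor Mef2c fell (-0.40 ± 0.10), and Ltc4s, the leukotriene C4 synthase, rose (0.63 ± 0.17). These 2 calls were lost in 5 (highest adjusted p = 0.0587, without KO 6) and 10 fits with an adjusted p of up to 0.0922 without KO 9. P2ry12 was at 0.05 ± 0.08 (adjusted p = 0.792), Cx3cr1 at -0.01 ± 0.08 (adjusted p = 0.966) and Tmem119 at -0.19 ± 0.09 (adjusted p = 0.227). The number of called members was 2 without Het 7 or KO 6 and 3 without Het 8, KO 8, KO 9, KO 10 or KO 11, all lower, and in male libraries alone none was called.

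Of 28 genes of injury-associated microglia (the DAM state) 7 were higher and 2 lower (median 0.36). Among all tested genes 2.89% were higher and 4.28% lower. Ctsb and Ctsd, lysosomal proteases, had the smallest p of the list. Ctsb had 1269 to 2147 CPM in Het (median 1431) and 2306 to 3076 CPM in KO (median 2786) and rose by 0.81 ± 0.12 (adjusted p = 0.00122). Ctsd had 3754 to 6085 CPM in Het (median 4288) and 6351 to 8591 CPM in KO (median 7496) and rose by 0.69 ± 0.12 (adjusted p = 0.00214). Lyz2, the lysozyme of myeloid cells, rose by 0.76 ± 0.16 (adjusted p = 0.00907), and Ctsz (0.65), Cadm1 (0.41), Ank (0.64) and Clec7a (0.77) rose too, the calls of Ank and Clec7a being lost in 4 (highest adjusted p = 0.0539, without KO 6) and 10 fits with an adjusted p of up to 0.0807 without KO 11. The 2 that fell were the chemokine Ccl6 (-1.05 ± 0.19, adjusted p = 0.00309) and the receptor Axl (-0.68 ± 0.18, lost in 6 fits with an adjusted p of up to 0.0767 without KO 9). Trem2 was at 0.36 ± 0.16 (adjusted p = 0.205), Apoe at 0.20 ± 0.25 (adjusted p = 0.716) and Cst7 at 1.10 ± 0.34 (adjusted p = 0.0617). The sum over the list was 8897 to 12231 CPM in Het without Het 9, 15765 CPM for Het 9 and 13988 to 20324 CPM for KO. Without Het 9, 12 members rose and 2 fell, and in male libraries alone 2 rose and 1 fell. Among 28 lysosome genes Atp6v0c, a proton pump subunit (0.43 ± 0.10), Lipa, the acid lipase (0.39 ± 0.10), and the sialidase Neu1 (0.72 ± 0.20) rose and Ctsh (-0.35 ± 0.10) fell (median 0.16). Lipa, Neu1 and Ctsh lost their calls in 7 (highest adjusted p = 0.0769, without KO 6), 8 (highest adjusted p = 0.104, without KO 11) and 9 fits with an adjusted p of up to 0.103 without KO 8, and without Het 9 there were 9 higher and 2 lower. 1 or 2 members were called without Het 7, 8 or 11 or KO 6, 7, 8 or 9, and none in male libraries alone.

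Other immune and lipid lists held few calls. Among all tested genes 2.89% were higher and 4.28% lower, so a single call in such a list describes that gene and not the list. Of 31 type I interferon genes Sp100 fell (-0.64 ± 0.16, lost in 7 fits with an adjusted p of up to 0.0699 without KO 9; list median -0.30), of 19 antigen presentation genes Cd80 was called, lower by 0.98 ± 0.28 and lost in 10 fits with an adjusted p of up to 0.0956 without KO 9, and of 12 complement genes Itgb2, the integrin β2 chain of complement receptor 3, rose (0.38 ± 0.09, adjusted p = 0.0138). The antigen presentation count was 2 higher and 1 lower without Het 9, and 1 higher and none lower without Het 9 and KO 6 together. Of 22 cholesterol synthesis genes Hsd17b7 (1.90 ± 0.44, adjusted p = 0.0157) and Sc5d (0.87 ± 0.20, adjusted p = 0.018) rose and Insig1, which retains the SREBP complex in the ER, fell (-0.86 ± 0.22, lost in 6 fits with an adjusted p of up to 0.0689 without KO 9). Lpcat3 was the 1 of 10 efflux and LXR genes to be called, lower by 0.60 ± 0.15 and lost in 4 fits with an adjusted p of up to 0.0549 without KO 10; without KO 11 the count was 1 higher and none lower, and without Het 9 1 higher and 2 lower. In male libraries alone none of the cholesterol synthesis, efflux, complement or antigen presentation genes was called. Of 33 cell cycle genes 2 fell, the chromatin protein Hmgb2 (-1.89 ± 0.20, adjusted p = 6.59e-05) and the replication clamp Pcna (-1.27 ± 0.28, adjusted p = 0.0115). Hmgb2 had 45.3 to 112 CPM in Het (median 85.7) and 18.7 to 25.9 CPM in KO (median 21.1), without overlap, whereas Mki67, a marker of dividing cells, was at 0.97 ± 0.32 (adjusted p = 0.0849).

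Markers of other cells that a CD11b and CD45 gate or debris could bring in were low for most types. Border-associated macrophage markers and Csf3r of the neutrophil list were higher. Of 10 markers of border-associated macrophages none was called (median -0.50), and their summed level was 693 to 1213 CPM for Het against 467 to 1090.0 for KO, which overlap. In replicates from 9 the sums were apart, at 693 to 982 CPM for Het against 467 to 512 for KO, while the mean log2 CPM of these markers overlapped (3.32 to 3.89 and 3.34 to 3.503); without Het 9, 1 marker was called lower. Sums over the listed markers of monocytes were 30.5 to 65.0 CPM for Het against 13.7 to 99.3 for KO, of lymphocytes 3.56 to 11.1 and 5.19 to 8.96, of oligodendrocytes 99.6 to 265 and 92.4 to 142, of astrocytes 151 to 248 and 170 to 214, of neurons 5.97 to 80.9 and 21.8 to 118, of endothelial cells 30.2 to 135 and 18.6 to 94.8, and of red blood cells 2.59 to 35.9 and 0.841 to 81.2 CPM. The monocyte sums were also apart in replicates from 9, at 37.2 to 65.0 CPM for Het against 13.7 to 22.8 for KO, and overlapped up to 8, at 30.5 to 42.7 and 32.7 to 99.3 CPM. The part of these cells in the results was not tested. Of the tested markers of these types (3, 1, 7, 7, 8, 4 and 4) only endothelial Pecam1 was called, lower by 1.24 ± 0.32 and lost in 3 fits with an adjusted p of up to 0.0631 without KO 11. Among neutrophil markers Csf3r, the receptor for the growth factor G-CSF, rose (0.33 ± 0.08, adjusted p = 0.0178). It had 341 to 429 CPM in Het (median 368) and 434 to 514 CPM in KO (median 479). Of the 12 listed, 10 were too low to test, and the other tested marker was at 1.75 and not called. The neutrophil sums did not overlap, at 347 to 431 CPM for Het against 442 to 518 for KO, and most of each sum was Csf3r. The neutrophil genes Ly6g and Camp, the lymphocyte gene Trbc2 and the endothelial gene Ly6c1 were at 0 in all 13 libraries, and Cldn5 of endothelial cells reached 0.14 CPM at most.

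The same genotypes were compared in 9 other naive adult libraries, 5 KO and 4 Het, in which Gm26917 and Yam1 took 0.0688% to 0.257% of counts. These are called the ncRNA-poor libraries here, and the KO effect was fitted in them in 1 model with all 26 naive libraries. By their Y-linked genes Het 2, Het 3, Het 4 and KO 2 were female, and Het 1, KO 1, KO 3, KO 4 and KO 5 were male. Sex and genotype were thus largely confounded in this batch, and sex was not in that model. There 193 of 16976 genes were higher (1.14%) and 198 lower (1.17%). Of the 366 genes higher in the 13 libraries 344 (94.0%) had a positive difference in the ncRNA-poor ones and 118 were called there. Of the 542 lower genes 418 (77.1%) had a negative difference there and 67 were called. Of all tested genes 51.5% were positive and 47.7% negative. Among the stress and glycolysis genes, Lox was at 3.07 in the ncRNA-poor libraries (adjusted p = 0.00627), Atf5 at 2.70 (0.00153), Asns at 2.69 (0.00951), Mthfd2 at 2.43 (0.00621) and Aldoa at 0.90 (0.00951), and Uqcrfs1 at -1.75 (0.00161). Of the 19 integrated stress response regulators 3 were called higher and none lower there, whereas Atf4, Atf3 and Ppp1r15a fell in the 13 libraries. The ribosomal protein median was 1.02 with 70 members called. No member was called in the ncRNA-poor libraries among the mitochondrial DNA protein genes (median 0.41), the cytokine list (-0.19) and the heat shock chaperones (-0.46). In the 13 libraries these lists had 9 higher, 5 lower and 3 lower members. The difference between the batches was called for Il1a alone among them. Rpl22l1, a paralogue of Rpl22, differed between the batches: it was at -0.23 ± 0.21 in the 13 libraries and at 1.40 in the ncRNA-poor ones (difference -1.62, adjusted p = 0.012).

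The immediate early genes had different medians in these batches, 0.10 in the ncRNA-poor libraries against -2.15 in the 13. Of the 24 members 1 was called in the ncRNA-poor libraries, and it was lower. In the remaining 4 naive libraries, the deepest (2 KO and 2 Het), the median was -0.96 with no member called, and 497 of the 542 lower genes (91.7%) and 353 of the 366 higher genes (96.4%) had the same sign as in the 13. In the ncRNA-poor libraries Egr1 was at 0.23 (adjusted p = 0.947), Fos at -0.24 (0.938) and Dusp1 at -0.04 (1.00). The test of the difference between the 2 batches called 63 of 16976 genes (0.371%), 54 with the lower effect in the 13 libraries and 9 with the higher. Of the 908 called genes 49 were among the 63. The count was 35, 38, 27 and 30 without Het 1, 2, 3 and 4 and 41 without KO 4 of the ncRNA-poor libraries. With sex as a covariate it was 52. For Btg2 the effects differed by -2.79 (adjusted p = 0.00215), for Klf2 by -2.77 (0.0304) and for Hmgb2 by -1.86 (0.00121). Jund, Klf6, Zfp36 and Rhob were the other immediate early genes among the 63. For Egr1 (-3.17, adjusted p = 0.0864) and Fos (-2.76, adjusted p = 0.113) the difference missed the threshold. mt-Rnr2 had the higher effect in the 13 libraries, by 1.48 (adjusted p = 0.0142); mitochondrial rRNA took 0.273% to 0.552% of counts in the ncRNA-poor libraries, so the batches also differ in how much mitochondrial rRNA they hold.

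**Figure D5:**
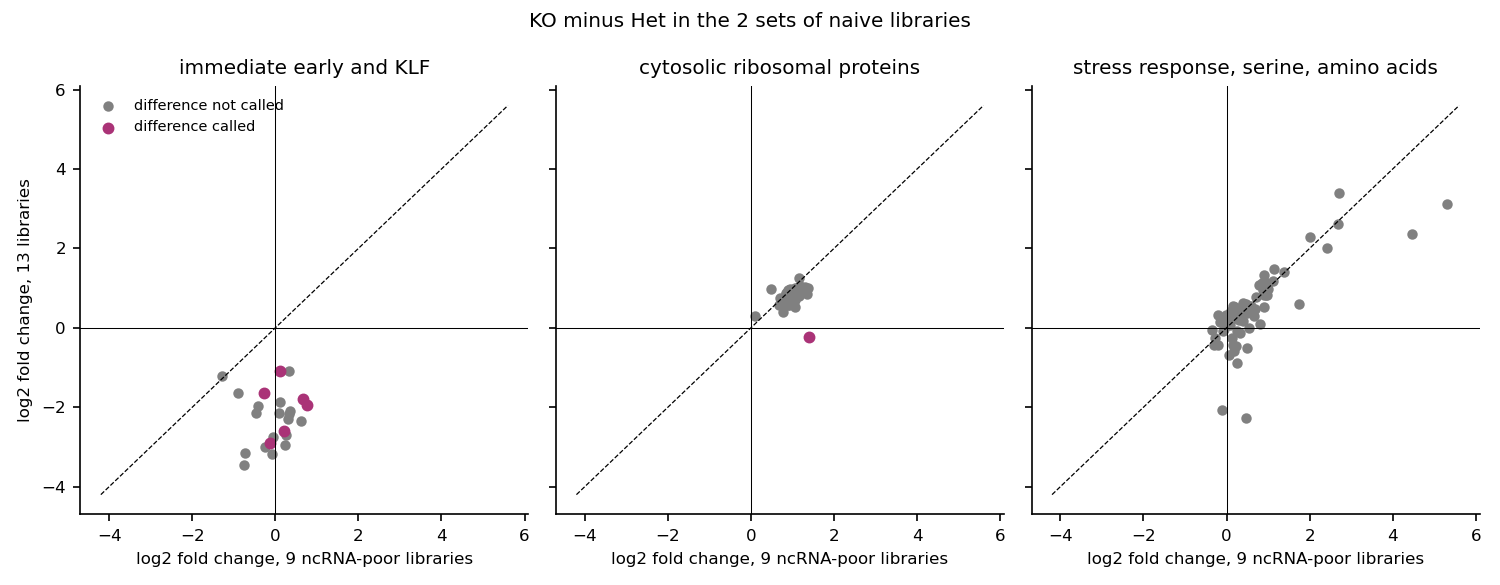
Log2 fold change between KO and Het of list members in the 9 ncRNA-poor libraries (horizontal axis) and in the 13 libraries (vertical axis), 1 point per gene, purple where the difference between the batches was called, with equal effects on the dashed line. Except for Fosl2 (-1.29 and -1.21), the immediate early genes lie below the line, as for Btg2 (0.21 and -2.59) and Klf2 (-0.13 and -2.90). No difference was called in the panel of stress response, serine and amino acid lists, where Atf5 is at 2.70 and 3.41. Atf4, Atf3 and Ppp1r15a of that panel were called lower in the 13 libraries and not in the ncRNA-poor ones.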

How the data were processed

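RNA was measured in 13 bulk libraries of sorted microglia, 6 RISP KO and 7 RISP Het, all naive and adult. The authors deposited raw counts per gene for 64 libraries in 1 table of 45708 genes. Per the submitters' processing notes, bcl2fastq 2.20, Trim Galore 0.6.7, STAR 2.6.1d and Salmon 1.5.2 were used with GRCm38; which of them made the counts, and whether counting used strand, is not given in the sources used here. Groups come from the sample titles, and batches from total counts and the share of Gm26917 and Yam1. Genes passing edgeR's filterByExpr (minimum count 10, minimum total 15) were scaled by TMM and tested two-sided with edgeR 4.0.16 (glmQLFit and glmQLFTest) in R 4.3.3, on the 13 libraries alone, with Benjamini-Hochberg adjustment over the 12677 genes and a threshold of 0.05. Differences from the ncRNA-poor batch were tested in 1 model over 26 libraries with 1 mean per group and batch (16976 genes). Levels are TMM-scaled CPM. No set test was run, and lists are given by counts and medians.

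Libraries of 6.38 to 11.7 M counts set the precision, and the labels mention no molecular identifiers. Tested on simulated data with 200 changed genes, the 13-library fit called 57% of the genes changed 2-fold, 92% of those changed 4-fold and 5 unchanged ones (12677 genes). For the batch difference these were 24%, 75% and 5 (16976 genes). The changed genes had a mean count of at least 20, and the spread of each gene was taken from the fitted trend. Neither the number sets nor outlying libraries such as Het 9 were simulated. The shares therefore need not hold with them or for genes of lower counts. The libraries and the 44 lists (35 of pathways and families, 9 of cell types) were chosen with earlier results of these data known. Named genes are Uqcrfs1, the 12 largest called changes in each direction (mean log2 CPM 3 or more, Gm, Rik, AC, BC, AA and AL clone symbols and sex-linked marker genes left out), the 4 called genes with the smallest p in a list, and the 5 smallest p of the comparison, 104 genes; some list members are not reported here, other members of a list are named with their values, and CreERT2, tdTomato, mt-Rnr1, Malat1, Neat1, Hist1h1c and Hist1h1e were named after their values were seen. Alternatives were DESeq2 1.42.0 size factors and Wald test, no filter on low counts, a replicate block, sex as a covariate, mitochondrial and the 2 non-coding genes left out, all 26 libraries, and each library left out. After seeing the data, fits by number set, by sex and without Het 9 and KO 6 were added. Sex was read from 4 Y-linked genes. Replicate numbers were not taken as pairs, as the labels state no pairing. Deviations of same-numbered KO and Het libraries correlated at 0.0199 to 0.115. Among Het 6 to 11 the same-numbered library correlated best with KO 7, KO 8 and KO 9, and another one with KO 6, KO 10 and KO 11. Promoters are from RefSeq (GRCm38.p6), gene positions from GENCODE M21, and figures were drawn with matplotlib 3.10.9.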

Additional observations from a re-analysis of the deposited data

Results flagged for a closer look

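In 208 groups (the Het and the KO values of each named gene) 19 had 1 library far from the rest by Dixon's test, where chance gives about 1 in 20. Het 9 held the outlying value in 7: it was low for Ccdc167 (2.79 CPM) and Polg2 (4.27 CPM), and high for Atp5g2 (24.9 CPM), Aldoa (206 CPM), Vdac1 (56.1 CPM), Fth1 (1025 CPM) and Atp6v0c (204 CPM), toward the KO values for all but Ccdc167, which rose in KO. Het 10 was low for Fos (295 CPM), Klf2 (139 CPM), Tnfaip3 (178 CPM) and Il1a (73.8 CPM), also toward KO. Het 11 was low for Slc7a5 (35.1 CPM) and Txnrd1 (28.8 CPM), away from KO. KO 6 was high for Cit (89.9 CPM) and low for mt-Co1 (5377 CPM), mt-Nd6 (126 CPM) and Hspa1a (0 CPM). KO 11 was high for Adamts1 (79.5 CPM) and Cdkn1a (51.3 CPM).

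The KO effect differed from that in the ncRNA-poor libraries, by the test of the difference itself, for mt-Rnr2 (1.48, adjusted p = 0.0142), Btg2 (-2.79, adjusted p = 0.00215), Klf2 (-2.77, adjusted p = 0.0304), Hmgb2 (-1.86, adjusted p = 0.00121), Pcna (-1.53, adjusted p = 0.0429), Il1a (-1.20, adjusted p = 0.0403) and Bcl2a1b (-0.81, adjusted p = 0.0493), all with edgeR. It differed between replicates up to 8 and from 9 for Klf4 (-1.87, adjusted p = 0.0374) and Btg2 (-1.37, adjusted p = 0.0194).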

How the results depend on the processing

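None of the 104 named genes reversed under any alternative run. The single call was lower in the 13 libraries and higher under an alternative for 2 lists, antigen presentation (without Het 9 and KO 6 together) and cholesterol efflux (without KO 11). The 908 called genes became 905 with DESeq2 size factors, 682 without the filter on low counts, 884 with sex as a covariate, 878 without mitochondrial DNA genes and the 2 non-coding genes, 1778 in the 26-library fit and 1476 with the DESeq2 Wald test. Leaving out 1 library gave 593 to 1501. With replicate numbers as a replicate block (replicates 6 to 11) 627 genes were called. The numbers share no stated source, and the block was run only as an alternative; 25 of 103 named genes other than Uqcrfs1 were no longer called under it, and Uqcrfs1 kept its call. Of the fits added after seeing the data, the number set as a covariate gave 1138 calls and the set with sex 1098, and all the named genes but Guk1 kept their calls with the set as a covariate. Replicates up to 8 alone gave 778 and male libraries alone 333. Replicates from 9 alone, 3 libraries a group with Het 9 among them, gave 10, and Uqcrfs1 was then at -2.42 with an adjusted p of 0.122; the cause was not tested, and 1316 genes had an unadjusted p under 0.05 there. Members called in the 35 lists of pathways and families numbered 189 in the 13 libraries, 5 in replicates from 9 and 70 in male libraries. The 63 genes that differed between the batches became 96 without the filter, 52 with sex as a covariate and 27 to 84 with each ncRNA-poor library left out in turn. How far depth limits the calls was not tested: genes of a few CPM (Trib3, Chac1 and Uqcc2) and well-counted ones (Ftl1 and mt-Atp6) lost calls without single libraries.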

Other observations

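The long non-coding RNA Neat1, which builds nuclear paraspeckles, fell by 1.08 ± 0.26 (adjusted p = 0.0213), with 169 to 364 CPM in Het (median 281) and 58.3 to 241 CPM in KO (median 125). Malat1, its neighbour on the chromosome, was at -0.61 ± 0.26 (adjusted p = 0.187). Het 9 had 4574 CPM of Malat1 against 14002 to 22572 CPM in the other Het, and in replicates up to 8 Malat1 was called, at -0.73 (adjusted p = 0.0123). The recombinase transcript CreERT2 also fell, by 0.60 ± 0.12 (adjusted p = 0.00756). Histone H1 genes, which differed between the number sets, were not called between genotypes over the 13 libraries and were called lower with the set as a covariate: Hist1h1e was at -0.89 ± 0.38 (adjusted p = 0.18) and -1.17 (0.000217), and Hist1h1c at -0.84 ± 0.36 (adjusted p = 0.188) and -1.06 (0.000437). KO was below Het within both sets for these 2 genes.

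The tdTomato row was uneven within both genotypes. It had 2.96 CPM in KO 7, 0.14 CPM in Het 8 and 0.194 CPM in Het 11, and 77.5 to 198 CPM in the other 10 libraries, so the reporter is all but absent from 3 libraries whose labels do not set them apart. Uqcrfs1 in KO 7 was 2.01 CPM, within the range of the other KO libraries.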
